A study of Mus musculus with 3 samples.

Results

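The 10 genes described here are Trem2, Tyrobp, Clec7a, Axl, Gpnmb, Csf1, Spp1, Lpl, Lyz2 and Cst7, a set known from microglia around brain lesions. They were taken by gene name from a table of 54532 genes, whatever biotype the table gives them, and all 10 were found. The table holds hippocampal RNA of 10-month-old mice on a C57BL/6 background, with 1 library for each of 3 genotypes. WT mice carry neither modification. PS19 mice carry a transgene for mutant human tau under the mouse Prnp promoter, which is active mainly in neurons. The third library, PS19 Zbp1+-, comes from mice with the same transgene and 1 Zbp1 allele lost (Zbp1 encodes a sensor of Z-form nucleic acids). PS19 against WT asks what the tau transgene does to these genes, and PS19 Zbp1+- against PS19 asks what lower Zbp1 dosage does. The sources used here do not give the sex of the mice, whether animals were pooled, or how the hippocampus was freed from neighbouring tissue.

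Microglia are the resident macrophages of the brain. Near amyloid, tau or dying cells they can take on a state called disease-associated, in which they handle lipids and debris. Trem2 is a surface receptor for lipids and lipoproteins on microglia. It has no signalling tail of its own and pairs with Tyrobp (DAP12), whose tail recruits the kinase Syk. In mouse models, full entry into the state depends on Trem2, and Clec7a, Axl, Gpnmb, Csf1, Spp1, Lpl and Cst7 are among the genes raised in it. Lyz2 and Tyrobp are described for an earlier step of it.

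With a single library per genotype there is no replicate check on any difference, and no p-value is given. Wherever 3 values follow each other they stand in the order WT, PS19, PS19 Zbp1+-. Levels are in FPKM, a unit that divides the fragments of a gene by its length and by the library size. Whole reads behind them could be recovered, and a read ratio is the ratio of 2 libraries' reads per library size. Its exact (Clopper-Pearson) 95% interval covers counting error only and compares the libraries, not the genotypes. In bulk tissue, fewer cells of a type and less RNA per cell cannot be told apart.

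The 3 libraries held between 16400328 and 17109734 reads. The targeted gene Zbp1 had 5, 91 and 0 reads, and the last value does not tell 1 allele from none. The PS19 Zbp1+- library stands apart in further ways. It held 0 reads of Xist, against 11062 and 13350 in WT and PS19, and of the 3 it alone held reads of Y-linked genes, among them 711 of Ddx3y and 268 of Uty. Of 357 genes with 8 to 12 reads in both other libraries, 57 had none in it (16%, exact 95% interval 12.3% to 20.2%), against 2.14% for WT and 0.41% for PS19 counted the same way. Its 7 choroid plexus markers summed to an FPKM of 10.6, against 3125 in WT and 1912 in PS19. By the Xist and Y-linked reads, WT and PS19 were female and PS19 Zbp1+- was male. The part of these differences, sex among them, in the values below was not tested. With 1 library per genotype they cannot be told apart from the Zbp1 genotype.

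The bases just before the start are shown for the receptor of the set and for Clec7a and Cst7, the genes with the largest read ratios of PS19 over WT. Each run is the 250 bases before the RefSeq start, 5′ to 3′ on the strand of the gene, from GRCm38.p6. Trem2 lies at chr17:48346151-48346400 (plus strand), Clec7a at chr6:129472780-129473029 (minus strand) and Cst7 at chr2:150570165-150570414 (plus strand). Capitals mark matches to any of 4 motifs on either strand. They are GAGGAA, a form of the core bound by the myeloid factor PU.1, CACGTG, the E-box, TCATGTG, the M-box, and TGANTCA, the AP-1 element.
Trem2: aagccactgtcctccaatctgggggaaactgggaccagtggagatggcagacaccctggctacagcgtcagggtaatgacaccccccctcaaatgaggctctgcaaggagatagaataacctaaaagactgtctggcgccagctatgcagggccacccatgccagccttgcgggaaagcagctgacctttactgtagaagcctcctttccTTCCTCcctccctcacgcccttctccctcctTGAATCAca
Clec7a: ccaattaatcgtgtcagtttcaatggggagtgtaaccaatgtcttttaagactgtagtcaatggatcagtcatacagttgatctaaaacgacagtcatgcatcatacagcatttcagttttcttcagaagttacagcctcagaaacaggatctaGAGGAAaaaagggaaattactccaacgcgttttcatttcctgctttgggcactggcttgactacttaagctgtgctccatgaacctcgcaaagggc
Cst7: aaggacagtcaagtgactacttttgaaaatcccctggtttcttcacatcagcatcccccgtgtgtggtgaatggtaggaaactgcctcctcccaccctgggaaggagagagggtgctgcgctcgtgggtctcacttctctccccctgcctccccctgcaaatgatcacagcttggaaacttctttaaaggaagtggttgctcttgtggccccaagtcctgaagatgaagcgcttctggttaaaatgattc

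Trem2 held TTCCTC, the PU.1 core on the other strand, 40 bases before its start and TGAATCA 9 bases before it. Clec7a held GAGGAA 96 bases before its start, and the Cst7 stretch held none of the 4. RefSeq entries were found for 8 of the 10 genes, all but Tyrobp and Lpl. Of the 8, Axl, Clec7a, Spp1 and Trem2 held the PU.1 core, which 23.3% of 32851 promoters of this length hold. The 8 genes have 10 starts and a gene was counted if any of its starts matched, whereas the share is per promoter. Clec7a held the core at both of its overlapping starts and Spp1 at its first start only. Trem2 alone held the AP-1 element (6.75% of promoters), and none held the E-box (6.02%) or the M-box (3.25%). These matches are letters in a window and say nothing of binding. Other forms of these sites were not searched for, so a stretch without a match can still hold a site.

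The receptor of the set, Trem2 (ENSMUSG00000023992; GRCm38 chromosome 17, 48346401 to 48354147, plus strand), had 206, 1066 and 229 reads, at FPKM values of 2.41, 12.5 and 2.93. PS19 stood above both other libraries, which lay close to each other. PS19 over WT gave a read ratio of 5.16 (4.44 to 6.02), and PS19 Zbp1+- over PS19 gave 0.235 (0.203 to 0.271). PS19 Zbp1+- over WT gave 1.21, with an interval up to 1.47 whose lower end rounds to 1.

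Tyrobp, the adaptor (ENSMUSG00000030579; chromosome 7, 30413760 to 30417585, plus strand), followed Trem2. It had 131, 582 and 114 reads, at FPKM values of 11.4, 50.5 and 10.8. PS19 was at 4.43 times the WT value (3.66 to 5.40), and PS19 Zbp1+- over PS19 gave 0.214 (0.173 to 0.262). Between PS19 Zbp1+- and WT it was 0.949, with an interval of 0.731 to 1.23 that holds 1.

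The level of Trem2 against its adaptor depends on which length the reads are divided by. The table's length for each of the 10 genes equals the union of all annotated exons of that gene. For Trem2 this is 4946 bases over 4 annotated transcripts, 4.55 times the 1088 bases of the principal transcript, while for Tyrobp it is 667 against 564 bases. Per base of the principal transcript, with all reads assumed to come from it, the level of Trem2 was 11, 56.7 and 13.3. That of Tyrobp was 13.5, 59.7 and 12.8 on the same scale. The receptor and its adaptor thus lay near each other in each library on this scale, whereas the deposited FPKM put Trem2 several-fold below. Clec7a (3.73 times) and Lpl (2.55 times) were the others whose table length was more than 2 times the principal transcript. Ratios between libraries do not depend on the length.

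**Figure D1:**
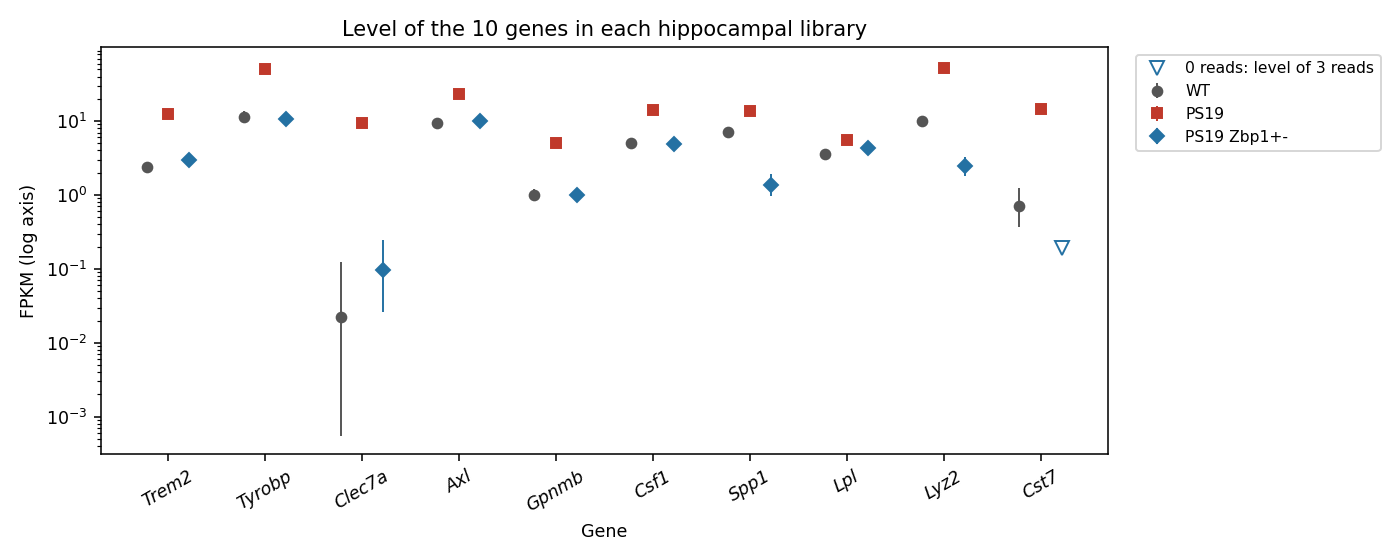
FPKM (log axis) of each of the 10 genes in the 3 libraries, with exact 95% counting intervals. The open triangle marks the level of 3 reads for Cst7, which had 0 reads in PS19 Zbp1+-. PS19 is the highest library for all 10 genes, and Clec7a and Cst7 show the widest gaps.

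Clec7a (ENSMUSG00000079293; chromosome 6, 129461591 to 129472779, minus strand) encodes dectin 1, a receptor for beta-glucans that signals through Syk. The table lists it as a polymorphic pseudogene. It had 1, 428 and 4 reads, at FPKM values of 0.022, 9.38 and 0.0958. Nearly all its reads were in PS19. The ratio of 427 for PS19 over WT rests on the single WT read, and its interval runs from 76.3 to 16910. PS19 Zbp1+- over PS19 gave 0.0102 (0.00277 to 0.0263). Whether PS19 Zbp1+- and WT differed in Clec7a was not detectable at this depth, with a ratio interval of 0.432 to 215.

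Axl (ENSMUSG00000002602; chromosome 7, 25757273 to 25788705, minus strand) is a receptor tyrosine kinase that binds Gas6 on dying cells. It had 808, 2025 and 794 reads, at FPKM values of 9.30, 23.3 and 9.97. PS19 over WT was 2.5 (2.30 to 2.72), PS19 Zbp1+- over PS19 was 0.428 (0.394 to 0.465), and PS19 Zbp1+- over WT was 1.07 (0.97 to 1.18). Astrocytes and vessels also express Axl, so its level in WT is not that of microglia alone.

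Gpnmb (ENSMUSG00000029816; chromosome 6, 49036546 to 49070929, plus strand) is a membrane glycoprotein of lysosome-rich macrophages. It had 113, 574 and 104 reads, at FPKM values of 1.01, 5.10 and 1.01. WT and PS19 Zbp1+- were level, with a ratio of 1 (0.761 to 1.32), while PS19 over WT was 5.07 (4.14 to 6.26) and PS19 Zbp1+- over PS19 was 0.198 (0.159 to 0.244).

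Of the secreted ligands, Csf1 (ENSMUSG00000014599; chromosome 3, 107741048 to 107760469, minus strand), a growth factor that microglia need to survive, had 460, 1276 and 405 reads. The FPKM values were 5.05, 14 and 4.85. PS19 over WT was 2.77 (2.49 to 3.09), PS19 Zbp1+- over PS19 was 0.347 (0.309 to 0.388), and PS19 Zbp1+- over WT was 0.96 (0.838 to 1.10). PS19 was again the high library and the intervals of the other two overlapped.

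Spp1, osteopontin (ENSMUSG00000029304; chromosome 5, 104435118 to 104441050, plus strand), had another order. It had 200, 394 and 36 reads, at FPKM values of 7.03, 13.8 and 1.38. PS19 over WT was 1.97 (1.65 to 2.34), and PS19 Zbp1+- over PS19 was 0.0998 (0.0689 to 0.141). In PS19 Zbp1+- it lay below WT, at a ratio of 0.196 (0.134 to 0.281).

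Lpl (ENSMUSG00000015568; chromosome 8, 68880491 to 68907448, plus strand), the lipase that releases fatty acids from lipoproteins, had the ratios nearest to 1 for PS19 over WT and for PS19 Zbp1+- over PS19. It had 643, 990 and 725 reads, at FPKM values of 3.56, 5.47 and 4.37. PS19 over WT was 1.54 (1.39 to 1.70), PS19 Zbp1+- over PS19 was 0.80 (0.726 to 0.881), and PS19 Zbp1+- over WT was 1.23 (1.10 to 1.37). Hippocampal neurons express Lpl as well.

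Lyz2, the macrophage lysozyme (ENSMUSG00000069516; chromosome 10, 117277331 to 117282321, minus strand), had 225, 1201 and 51 reads, at FPKM values of 9.91, 52.8 and 2.45. PS19 over WT was 5.33 (4.62 to 6.17), PS19 Zbp1+- over PS19 was 0.0464 (0.0343 to 0.0614), and PS19 Zbp1+- over WT was 0.247 (0.179 to 0.336). Its close paralog Lyz1, which lies beside it, had 1, 3 and 0 reads, so few reads were assigned to that copy in any library.

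Cst7, cystatin F, an inhibitor of lysosomal cathepsins (ENSMUSG00000068129; chromosome 2, 150570415 to 150578944, plus strand), had 12, 248 and 0 reads, at FPKM values of 0.705, 14.5 and 0. PS19 over WT was 20.6 (11.6 to 40.5). PS19 Zbp1+- was at least 75.7-fold lower than PS19 and at least 3.67-fold lower than WT, taken against 3 reads per library. At this depth 0 reads leave room for an FPKM of 0.192, the level of 3 reads. Of 1325 genes of the tested biotypes with 200 to 300 reads in PS19, 2 had no read in PS19 Zbp1+-, Cst7 and Shox2 (the latter named after its value was seen). These genes were matched to Cst7 on reads in PS19 only, not on its 12 reads in WT. Of genes with 8 to 12 reads in both other libraries, 16% had none in PS19 Zbp1+-, as given above. Why Cst7 had no read was not tested.

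**Figure D2:**
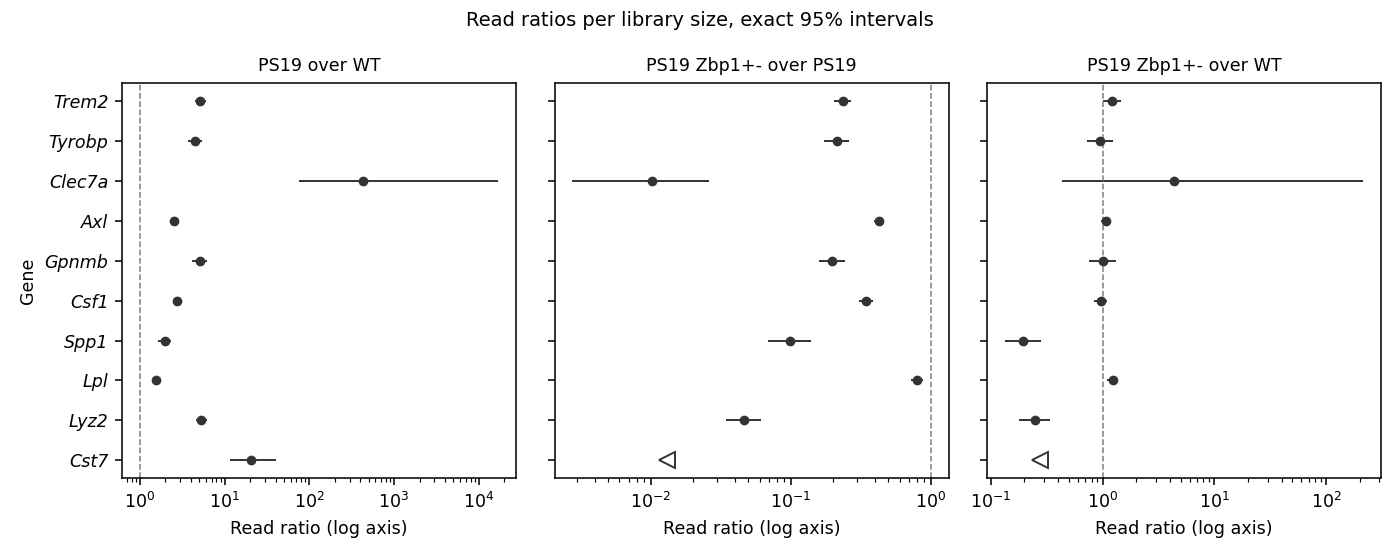
Read ratios per library size (log axis) for PS19 over WT, PS19 Zbp1+- over PS19 and PS19 Zbp1+- over WT, with exact 95% intervals and a dashed line at 1. Open triangles are upper bounds for Cst7. All 10 genes lie above 1 in the first panel and below 1 in the second. In the third the intervals of Spp1 and Lyz2 lie wholly below 1, and so does the triangle of Cst7.

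For counts over genes, values were compared as log2(FPKM + 1), and a gene was called higher or lower at a difference of 1 or more, if it reached an FPKM of 1 in either library. The added 1 shrinks the difference of genes with low FPKM, so a gene near an FPKM of 1 can differ by more than 2-fold in reads and not be called. Counts of genes at least 2-fold apart in reads per library size, with reads set to at least 3, are therefore given beside the calls. All 10 genes passed that minimum in PS19 against WT, and 8 of them were called higher in PS19. Clec7a and Cst7, at FPKM values of 0.022 and 0.705 in WT, passed it only through PS19, where they were high. Both are among the 8. The counts for general microglia markers, given further below, were the same as for the 10 genes in this comparison and the next. Over all 12710 genes tested the share called higher was 2.23% and the share called lower 0.291%, and none of the 10 was called lower. By read ratio the count was also 8, against 4.54% of genes at least 2-fold higher and 0.96% lower. Spp1 at 0.88 and Lpl at 0.50 were the genes not called. The median difference of the 10 was 1.79 log2 units, against -0.03 over all genes tested.

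Between PS19 Zbp1+- and PS19, 9 of the 10 were called lower and Lpl, at -0.27, was not. Clec7a and Cst7 are among the 9, and here too they passed the minimum only through PS19. The share of the 12779 genes tested that was called lower was 5.18%, and 2% were called higher. By read ratio 9 of the 10 were again at least 2-fold lower, against 9.69% of genes lower and 3.63% higher. The median difference was -1.95, against 0.04 over all genes tested. Both comparisons use the PS19 library, so a high PS19 value enters both, and they are not independent.

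Between PS19 Zbp1+- and WT, 8 of the 10 reached the minimum. Clec7a and Cst7 did not. Of the 8, Spp1 at -1.76 and Lyz2 at -1.66 were called lower and none higher, against 2.28% called lower and 1.07% called higher of 12438 genes. By read ratio the same genes, Spp1 and Lyz2, were at least 2-fold lower, against 4.78% of genes lower and 2.61% higher. The median difference of the 8 was -0.02, against 0.01 over all genes tested. The interval of the read ratio held 1 for 6 genes, Trem2 (at its lower end), Tyrobp, Clec7a, Axl, Gpnmb and Csf1, and lay above 1 for Lpl. These ratios divide by library size. PS19 Zbp1+- held 17109734 reads, more than its library size of 15826984, while WT held 16746085, fewer than its 17253479. Divided by total reads instead, each ratio of PS19 Zbp1+- over WT would be lower, which the intervals do not cover. Whether the interval of Lpl would then still lie above 1 was not tested. The difference of Axl, 0.09, turned to -0.06 after rescaling to TPM, to -0.05 when scaled by total reads and to -0.08 after the correction for GC content and length.

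The order of levels, which is per length of the table, changed between libraries. In WT, Tyrobp, Lyz2 and Axl were highest, with neighbours that overlapped in their counting intervals, and Cst7 and Clec7a were lowest. In PS19, Lyz2 at 52.8 and Tyrobp at 50.5 led and overlapped. Cst7 came next after Axl there, in a run with Csf1, Spp1 and Trem2 between 12.5 and 14.5 in which neighbours overlapped. Tyrobp and Axl led in PS19 Zbp1+- and overlapped, Lyz2 at 2.45 overlapped Trem2 at 2.93, and Clec7a and Cst7 were again lowest.

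Other microglial genes were also high in PS19. The 10 general microglia and macrophage markers (C1qa, C1qb, C1qc, Csf1r, Aif1, Itgam, Ptprc, Cd68, Laptm5 and Spi1) summed to FPKM values of 134, 544 and 143, and none was at 0 reads. Of these markers 8 were called higher in PS19 than in WT, with a median difference of 1.63. Against PS19, 9 were called lower in PS19 Zbp1+-, with a median of -1.22. Both counts equal those of the 10 genes. The 11 homeostatic markers summed to 85.7, 204 and 103, with 3 called higher in the first comparison and 3 lower in the second. Within these, P2ry12, a purine receptor of resting microglia, was at 11.2, 10.1 and 8.66, with PS19 over WT at 0.904 (0.794 to 1.03) and PS19 Zbp1+- over WT at 0.776 (0.675 to 0.893). Tmem119 was at 11, 12.4 and 10.2, with PS19 over WT at 1.13 (0.99 to 1.28) and PS19 Zbp1+- over PS19 at 0.822 (0.717 to 0.942). Neither thus differed between PS19 and WT beyond its counting interval. Cx3cr1, the fractalkine receptor, was at 4.08, 22.1 and 10.8. Single markers differed between PS19 Zbp1+- and WT in both directions. Of the 11 homeostatic markers 2 were called higher and none lower, against 1.07% of all genes called higher. The 2 were Cx3cr1 and Fcrls, with read ratios of 2.64 and 3.52, while Gpr34 at 0.551 lay below WT. Of the general markers, Ptprc at 0.467 and Itgam at 0.635 were among those below WT. Laptm5 at 1.75 and Spi1 at 1.56 were among those above it.

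Set against the geometric mean of the general markers, which in PS19 was 3.62 times that in WT, 6 of the 10 genes were above their WT value in PS19 and 4 below, and 2 were at least 1.5 times above. Trem2 per general marker was 1.43 times, Tyrobp 1.22 times, Gpnmb 1.40 times and Lyz2 1.47 times the WT value in PS19. Axl at 0.69, Csf1 at 0.764, Spp1 at 0.543 and Lpl at 0.424 were below 1, and Cst7 at 5.69 and Clec7a at 118 were far above it. The median over the 10 was 1.31.

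With the homeostatic markers as the divisor, whose mean in PS19 was 2.09 times that in WT, 8 of the 10 ratios exceeded 1 and the median was 2.28. Spp1 at 0.943 and Lpl at 0.737 stayed below 1. How far the 10 genes exceeded microglial RNA in PS19 therefore depended on the divisor. Trem2, Tyrobp, Gpnmb, Lyz2, Cst7 and Clec7a were above 1 with both divisors, Axl and Csf1 with the homeostatic markers only, and Spp1 and Lpl with neither. Per general marker in PS19 Zbp1+-, Trem2 was 1.18, Tyrobp 0.921 and Gpnmb 0.974 times the WT value, while Spp1 was 0.191 and Lyz2 0.24.

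**Figure D3:**
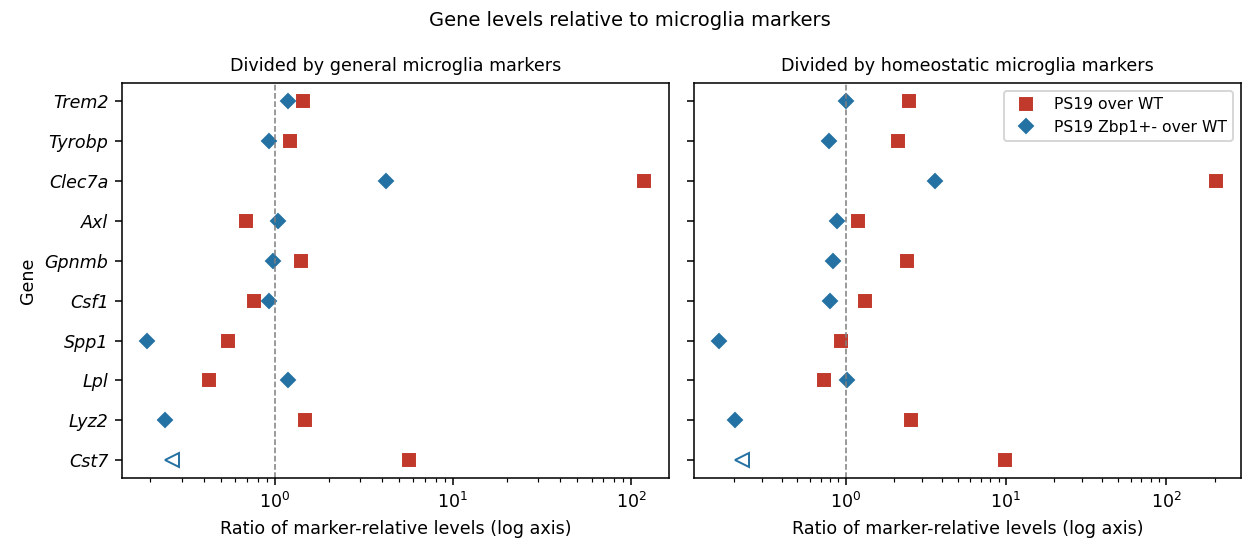
Each gene's FPKM divided by the geometric mean of the general (left) or homeostatic (right) microglia markers, as a ratio to WT on a log axis, for PS19 (squares) and PS19 Zbp1+- (diamonds, with an open triangle for the upper bound of Cst7). Clec7a at 118 and Cst7 at 5.69 in PS19 lie farthest right on the left panel, and Spp1 and Lyz2 in PS19 Zbp1+- lie far left on both.

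Spp1, Lyz2 and Cst7 were below WT in PS19 Zbp1+-. Lyz2 is also made by macrophages at the borders of the brain and by blood myeloid cells. The 7 border macrophage markers summed to FPKM values of 3.6, 4.61 and 0.529. Mrc1, their mannose receptor, had 80, 119 and 6 reads, Cd163 had 37, 95 and 8, and Pf4 had 9, 5 and 0. Of these 7, 2 were at 0 reads in PS19 Zbp1+- (Pf4 and Ms4a7) and none in the other libraries. Border macrophages are found in the choroid plexus, whose markers were low in the same library, as given above. The 9 monocyte and neutrophil markers summed to 2.36, 6.77 and 0.914, with 2, 1 and 7 at 0 reads. The 7 lymphocyte markers summed to 0.446, 1.49 and 0.266, with 2, 1 and 6 at 0 reads. The part of these cells in the values of Spp1, Lyz2 and Cst7 was not tested.

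Markers of other glia differed as well. The 7 astrocyte markers summed to 357, 1178 and 390, with Gfap in the lead, and the 7 oligodendrocyte markers to 732, 1318 and 460, both highest in PS19. The 3 oligodendrocyte precursor markers summed to 76.3, 86.8 and 114, with Olig1 (68.4, 78.3 and 106) in the lead. Olig1 and Cspg4 were highest in PS19 Zbp1+-, while Pdgfra, at 6.23, 6.09 and 4.9, was lowest there. The 7 neuron markers summed to 1462, 1115 and 1771. Astrocytes are a known source of Csf1 and Axl, and neurons of Lpl. The part of these cells in the 10 genes was not tested.

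**Figure D4:**
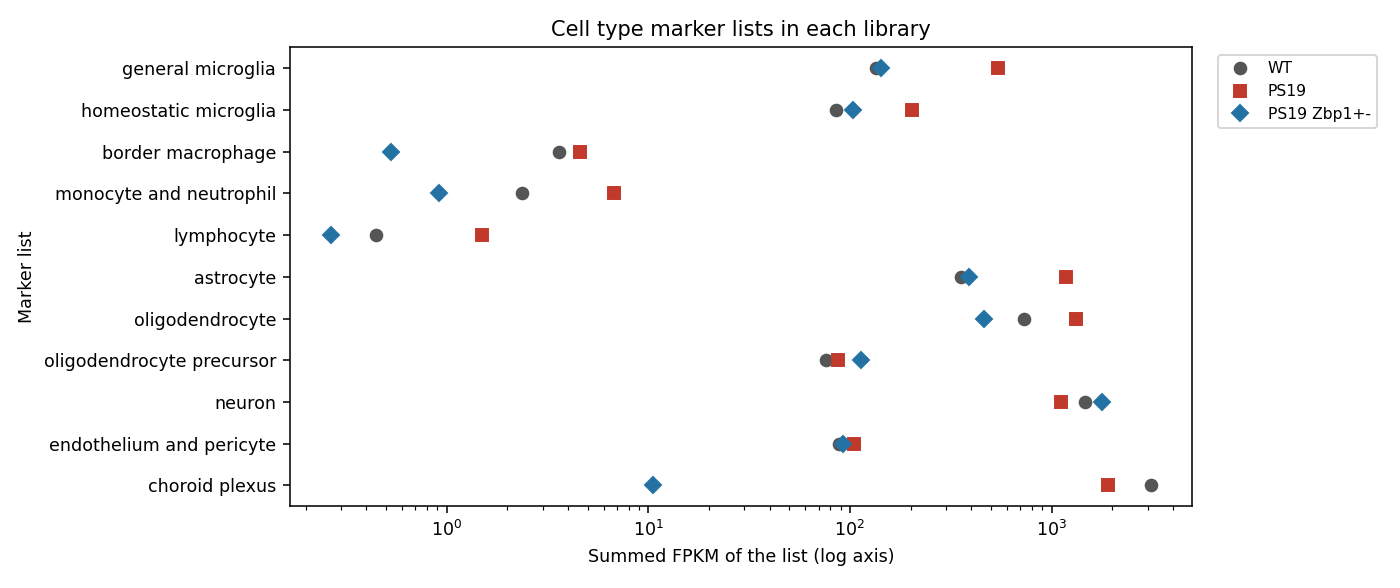
Summed FPKM (log axis) of each cell type marker list in the 3 libraries. The sums of the microglia lists are highest in PS19 and nearer to each other in WT and PS19 Zbp1+-, though single markers differ there in both directions. The border macrophage and choroid plexus lists are lowest in PS19 Zbp1+-, at 0.529 and 10.6.

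Genes of the Trem2 signalling list, which also holds lipid ligands and shedding proteases, were mostly higher in PS19 and lower in PS19 Zbp1+-. They were not divided by microglia markers, and the mean of the general markers in PS19 was 3.62 times that in WT. In the list only Ptpn6 (4.49) and Lyn (3.73) had a read ratio of PS19 over WT above that. The part of microglial amount in these values was not tested. Of 20 genes of Trem2 signalling, 19 were tested in PS19 against WT, of which 4 were called higher and none lower, with a median difference of 0.62. The 4 were Ptpn6, a phosphatase that damps such receptors, at 1.51, the kinase Lyn at 1.39, the lipid phosphatase Inpp5d at 1.21 and the exchange factor Vav1 at 1.01. By read ratio 11 of the 19 were at least 2-fold higher and none lower, among them Syk, the kinase Btk at 2.86 (1.73 to 4.88) and the linker Lcp2 at 2.42 (1.68 to 3.56). Against PS19, 5 of 19 were called lower in PS19 Zbp1+- and none higher, with a median difference of -0.84. These were Ptpn6 at -1.37, the linker Blnk at -1.09, Inpp5d at -1.05, Hcst at -1.03 and Vav3 at -1.02. Hcst rests on 13 reads in PS19 and 0 in PS19 Zbp1+-, and with the 0 set to 3 reads its difference was -0.69 and no call, which leaves 4. By read ratio 12 of the 19 were at least 2-fold lower and none higher. Against WT, 14 were tested in PS19 Zbp1+- and none was called, or 2-fold apart by read ratio, in either direction. The shares over all genes tested, by call and by read ratio, were 2.23% and 4.54% higher in PS19 against WT. They were 5.18% and 9.69% lower in PS19 Zbp1+- against PS19.

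Syk, the kinase that binds the Tyrobp tail, had 72, 194 and 65 reads, 2.69 times as much in PS19 as in WT (2.04 to 3.58), while PS19 Zbp1+- over PS19 gave 0.366 (0.272 to 0.487). Plcg2, the phospholipase downstream of it, was at FPKM values of 1.23, 3.23 and 1.46. Hcst, the other adaptor of Trem2, was scarce, with 5, 13 and 0 reads. Apoe, a lipid ligand of Trem2, was far more abundant at FPKM values of 903, 1459 and 859, with PS19 at 1.62 times the WT value (1.59 to 1.64). Of the proteases that shed Trem2, Adam10 was at FPKM values of 16.7, 17.9 and 14.3 and Adam17 at 2.67, 3.78 and 1.65, with PS19 over WT at 1.07 (0.998 to 1.15) and 1.42 (1.23 to 1.64).

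Receptors and partners of the 10 genes differed among themselves. Of 24 partner genes 18 were tested in PS19 against WT, and 5 were called higher, also at least 2-fold by read ratio: Cd44, Csf1r, Pros1, Itgb5 and Ctsh. None was lower, and the median was 0.32. In PS19 Zbp1+- against PS19, 6 of 18 were called lower (Ctsh, Ctsc, Cd44, Pros1, Csf1r and Ctsl) and none higher, with a median of -0.63, and 8 were at least 2-fold lower by read ratio, these 6 with Mitf and Tfeb. In PS19 Zbp1+- against WT, 1 of 17 was called, Ctsc at -1.16, and Ctsh was also at least 2-fold lower by read ratio. The shares over all genes tested, by call and by read ratio, were 2.23% and 4.54% higher in PS19 against WT. They were 5.18% and 9.69% lower in PS19 Zbp1+- against PS19, and 2.28% and 4.78% lower against WT.

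For Csf1, the receptor Csf1r had 1484, 4115 and 1776 reads, with PS19 at 2.77 times the WT value (2.61 to 2.94), the same value as for Csf1. Il34, the neuronal ligand of that receptor, had 839, 582 and 827 reads and was lower in PS19, at 0.692 (0.622 to 0.77). Both ligands of this receptor thus differed between PS19 and WT in opposite directions. For Axl, the ligand Gas6 was at FPKM values of 55.9, 62.2 and 41.7, with PS19 over WT at 1.11 (1.05 to 1.17) and PS19 Zbp1+- over PS19 at 0.671 (0.632 to 0.714), and the ligand Pros1 had 255, 631 and 207 reads, 2.47 times as much in PS19 as in WT (2.13 to 2.87). The sister receptor Mertk was at 9.09, 14.6 and 10, and Tyro3, mostly neuronal, at 25.2, 19.1 and 32.8.

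For Spp1, the receptor Cd44 had 71, 442 and 40 reads, 6.21 times as much in PS19 as in WT (4.83 to 8.10), while PS19 Zbp1+- over PS19 gave 0.0989 (0.0697 to 0.137). Its integrin receptors Itgav and Itgb1 were at FPKM values of 5.03, 6.46 and 3.90 and of 15.5, 18.4 and 12.3, and Itgb5 at 18.3, 38.9 and 20.8. For Cst7, the target protease Ctsc had 278, 493 and 63 reads and Ctsh had 180, 456 and 62. Both were below WT in PS19 Zbp1+-, at ratios of 0.247 (0.185 to 0.326) and 0.375 (0.277 to 0.504), as Cst7 was. For Gpnmb, the transcription factors Mitf, Tfeb and Tfe3 that can drive it were at most 0.33 apart between PS19 and WT on the log2(FPKM + 1) scale, and Tfeb was lower in PS19 Zbp1+- than in PS19, at -0.91. For Lpl, the maturation factor Lmf1 was at FPKM values of 1.41, 1.35 and 1.76, with PS19 Zbp1+- over PS19 at 1.31 (1.12 to 1.52), and the anchor Gpihbp1 had 7 reads or fewer in each library.

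**Figure D5:**
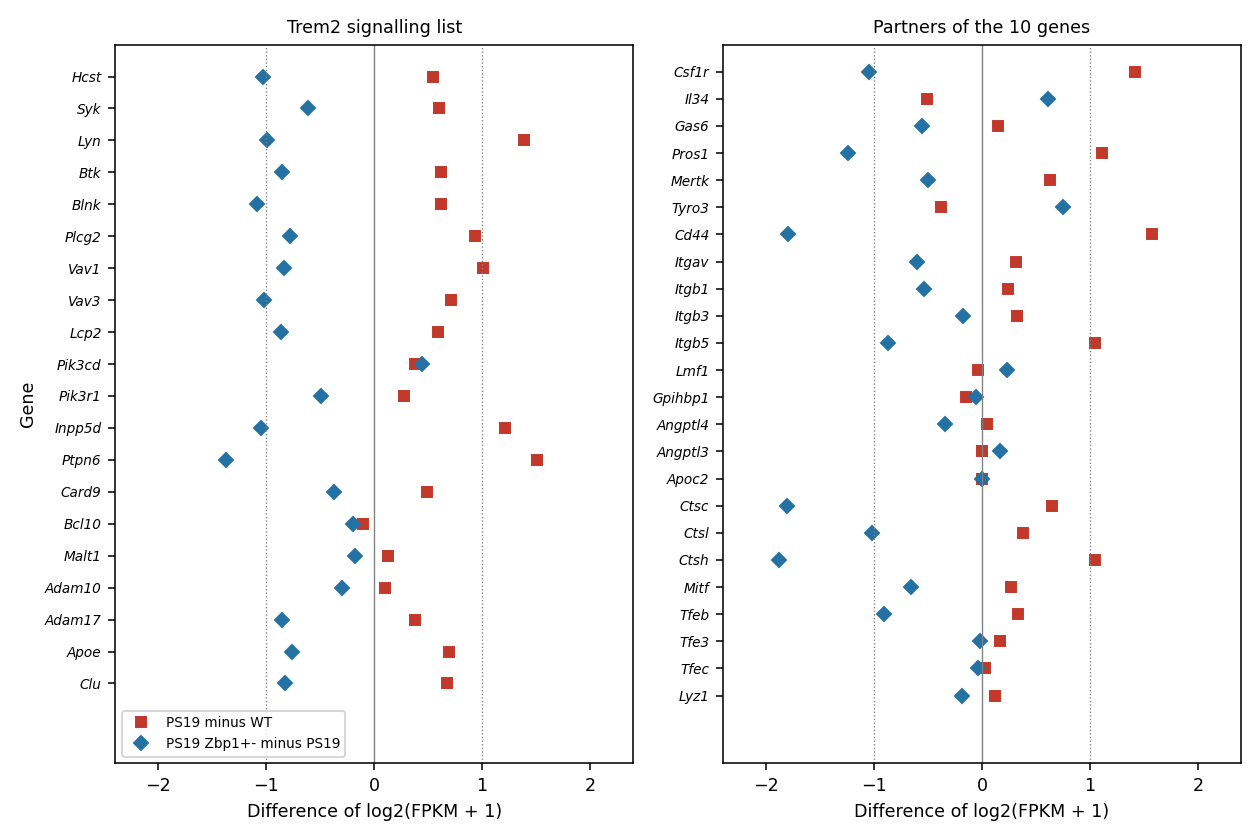
Difference of log2(FPKM + 1) for each gene of the Trem2 signalling list and of the partner list, PS19 minus WT (squares) and PS19 Zbp1+- minus PS19 (diamonds), with dotted lines at 1 and -1. Most genes lie right of 0 in the first comparison and left of it in the second, and Il34, Tyro3 and Lmf1 lie the other way round.

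The neighbours of Trem2 on chromosome 17 did not share its level. Trem1 and Treml4 had 0 reads in all 3 libraries, and Trem3 had 7, 0 and 1 and Treml1 6, 4 and 0. Treml2 had 2, 37 and 0 reads, 18.5 times as much in PS19 as in WT (4.76 to 158), at an FPKM of 0.435 in PS19. No gene of the cluster but Trem2 reached an FPKM of 1.

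Of 30 other genes reported for the disease-associated state, 28 were tested in PS19 against WT. Of these 12 were called higher and none lower, with a median of 0.67, and the count by read ratio was 12 as well. Over all genes tested the shares were 2.23% called higher and 4.54% at least 2-fold higher by read ratio. Of the 21 general and homeostatic microglia markers 11 were called higher, with a median of 1.13. The part of microglial amount in these values was not tested. Itgax, an integrin, had 14, 602 and 5 reads, and Cd52, a surface glycopeptide, had 16, 179 and 14, so that both, like Clec7a, had most of their reads in PS19. Against PS19, 15 of 28 were called lower in PS19 Zbp1+-, and 15 by read ratio, against 5.18% and 9.69% of all genes tested. Of the 21 microglia markers 12 were called lower, and the median was -1.02 in both lists. Fabp5, a fatty acid carrier, was at FPKM values of 15.9, 15.3 and 15.1, and the intervals of all its ratios held 1. Ank was at 61.9, 62.6 and 75.7, with PS19 Zbp1+- over PS19 at 1.21 (1.16 to 1.26). Fth1, the ferritin heavy chain, was at 2349, 2852 and 2146.

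The genes whose pattern over the 3 libraries was nearest to the median of the 10 were Ramp3, S100a6, Cdkn1a, Aldh1a1 and Aqp4. Nearness was the distance between values of log2(FPKM + 1) after subtracting each gene's mean, among genes with a mean FPKM of at least 5. Ramp3 had 76, 268 and 52 reads, and Aqp4, the astrocyte water channel, had 1945, 5464 and 1364. With 3 values per gene this likeness is a description only. Of the 10 genes, Gpnmb at a distance of 0.18, Trem2 at 0.26 and Tyrobp at 0.27 lay nearest to their median, and Lyz2 and Cst7, both at 1.54, lay farthest.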

How the data were processed

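RNA-seq of hippocampus was deposited as 1 table of FPKM values, with 1 column per genotype. Trim Galore 0.6.5, STAR 2.5.3a, featureCounts 2.0.4 and build mm39 are named in the submitters' processing notes. The gene positions in the table, however, equal those in GENCODE M21, a GRCm38 annotation, for 98.3% of the 54409 IDs that it shares, and are printed as the table has them. The authors' FPKM values multiplied by gene length were whole multiples of 1 step (within 0.1 of a read) for 100% of values, which gave reads and library sizes of 17253479, 17287957 and 15826984 for WT, PS19 and PS19 Zbp1+-. Strandedness is not given in the sources used here. In the table, 1 gene overlaps any of the 10: Gm42793, on the strand of Spp1 over 1252 bases, with 0 reads in every library.

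The genes tested were those of biotype protein coding or polymorphic pseudogene, the biotype of Clec7a, and had to reach an FPKM of 1 in 1 of the libraries compared. The pseudocount was 1. The 10 genes and all lists were chosen with earlier results of these data known. Besides the 10 genes, genes were named by rule: listed partners and markers, and the 5 nearest patterns. Ratios against 0 reads were taken against 3 reads per library. Alternatives covered pseudocounts, filters, scalings, thresholds and the biotypes; the correction for GC content and length, the levels per principal transcript, the read-ratio counts of the lists and 0 set to 3 reads were added after the data were seen. The procedure was tested on simulated data. Python 3.11.15, numpy 2.4.6, pandas 2.3.3 and scipy 1.17.1 were used.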

Additional observations from a re-analysis of the deposited data

How the results depend on the processing

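The count of 8 of 10 genes called higher in PS19 than in WT was within 1.5 times under every alternative but a threshold of 4-fold in FPKM + 1, which left 4. Likewise 9 of 10 lower in PS19 Zbp1+- than in PS19 became 5 at 4-fold. The 2 genes lower in PS19 Zbp1+- than in WT became 1 with a mean FPKM of at least 5, which left 3 genes to test, and 0 at 4-fold. The median difference for PS19 minus WT, 1.79, was 2.19 with a pseudocount of 0.1, 2.22 after rescaling to TPM and 2.25 as a log2 read ratio with reads set to at least 3. For PS19 Zbp1+- minus PS19, -1.95 was -2.39 after rescaling to TPM, where the all-gene median was -0.23 in place of 0.04, and -2.28 as a log2 read ratio. For PS19 Zbp1+- minus WT, -0.02 was -0.38 as a mean. Per general microglia marker the median log2 ratio was 0.39 for PS19 over WT and -0.46 for PS19 Zbp1+- over PS19, and with homeostatic markers it was 1.19 and -1.49. Of 267 values of single genes under an alternative, 227 moved by no more than their counting error, 40 moved by more, and none of those called turned its sign. The 227 include values that could not move, since another filter or choice of biotypes leaves the difference of a single gene as it was. They also include Clec7a, whose counting error is wide: 3.35 for PS19 minus WT became 6.28 with a pseudocount of 0.1. No replicate could be left out and no paired analysis was possible because each genotype has 1 library. The 16% of low-count genes with no read in PS19 Zbp1+- limit what its lowest counts can show. For the Trem2 signalling list, the calls of 4 genes higher in PS19 and 5 lower in PS19 Zbp1+- became 11 and 12 by read ratio.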
